A study of Mus musculus with 6 samples.

Results

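The hair follicle stem compartment markers described here are 10 genes that mark 2 regions of the mouse hair follicle. The bulge set holds Cd34, Lhx2, Sox9 and Nfatc1, and the upper follicle set holds Lrig1, Plet1, Lgr6, Gata6, Atp6v1c2 and Cst6. Members were found as array rows annotated to exactly 1 of these genes, which gave 102 probe sets for 9 genes, out of 11281 genes measured. Plet1 was found under its older symbol, and Lgr6, a receptor that marks stem cells of the isthmus, was not analysed here. The study compared back-skin epidermal cells of wild type mice with those of K14ΔNLef1 mice, in which the promoter of keratin 14, a keratin of the basal layer, drives Lef1, a transcription factor of the Wnt pathway, without the N-terminal end that binds beta-catenin. All 6 mice were female, 9.5 weeks old and of a C57BL6/CBA background, with 3 biological replicates per genotype, and each sample was read on 1 exon array. The cells were keratinocytes not separated into subsets, so the follicle cells were measured in a mixture with the other cells of the epidermis.

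The bulge is the lower part of the permanent follicle and holds slowly dividing stem cells that rebuild the follicle at each hair cycle. Above it, the isthmus, the junctional zone and the infundibulum hold other stem and progenitor cells, which maintain the upper follicle, the sebaceous gland and its duct. Wnt signals through Lef1 and related factors direct cells to hair lineages, and a Lef1 that cannot bind beta-catenin is known to divert epidermal cells toward sebaceous and interfollicular fates. The comparison asks how the markers of these compartments differ when this factor is made in the epidermis. In bulk samples, a change in the number of cells of a type and a change of RNA per cell cannot be told apart.

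None of the 9 measured markers passed the test between the genotypes, and the 2 nearest were Cd34, higher on every transgenic array, and Atp6v1c2, higher on 2 of the 3. The test was limma with Benjamini-Hochberg adjustment over all genes and a threshold of 0.05, at which 1.16% of genes were called, 0.328% higher and 0.833% lower in K14ΔNLef1. Of the members, 4 had a higher mean and 5 a lower mean in K14ΔNLef1, where 42.8% of all genes were higher. At an unadjusted limma p under 0.05 there were 2 members of 9, against 11.8% of all genes, and 2 had no overlap between the genotypes, against 18.7% of all genes. These were Cd34 and Sox9, both higher in K14ΔNLef1. Of all genes tested, 6.91% had no overlap and were higher in K14ΔNLef1. A gene's value is the log2 intensity averaged over its probe sets, and intensities of different genes cannot be set against each other. Differences are K14ΔNLef1 minus wild type on that scale.

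The samples carried the labelled cell type and transgene, and 1 array stood apart. The basal keratins Krt14 and Krt5 lay between 12.81 and 13.06 and between 11.98 and 12.48 over the 6 arrays. Lef1 averaged 6.36 ± 0.61 on wild type arrays and 11.16 ± 0.07 on transgenic ones (SD, n = 3 each). K14ΔNLef1 replicate 1 had a median intensity of 154.2, against 190.0 to 203.2 on the other 5 arrays, and its mean correlation with the other transgenic arrays across genes was 0.906, against 0.935 or more for every other array with its own genotype. Differences of the members are therefore also given without it.

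Promoter sequences are shown for the member with the smallest p in each set, Cd34 and Atp6v1c2, because the transgene retains the DNA-binding part of Lef1. They are the 250 bases before the RefSeq start in GRCm38.p6, written 5′ to 3′ on the strand of the gene, at chr1:194938571-194938820 on the plus strand for Cd34 and at chr12:17324731-17324980 on the minus strand for Atp6v1c2.
Cd34: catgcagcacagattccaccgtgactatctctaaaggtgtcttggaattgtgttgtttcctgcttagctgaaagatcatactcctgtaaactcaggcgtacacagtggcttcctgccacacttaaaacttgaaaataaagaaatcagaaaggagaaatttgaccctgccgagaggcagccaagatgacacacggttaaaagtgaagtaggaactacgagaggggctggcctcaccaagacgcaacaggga
Atp6v1c2: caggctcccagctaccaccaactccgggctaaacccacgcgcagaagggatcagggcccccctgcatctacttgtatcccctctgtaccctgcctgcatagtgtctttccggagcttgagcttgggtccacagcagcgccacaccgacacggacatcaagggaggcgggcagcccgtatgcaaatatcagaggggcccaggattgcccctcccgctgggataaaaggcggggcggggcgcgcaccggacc
The core letters bound by the Lef1 and Tcf family, CTTTGA and CTTTGT on both strands, would stand in capitals, and neither occurs in these windows. Nor do they occur in the windows of Lhx2, which has 2 starts, Lrig1 or Plet1, the other members searched. No window was searched for Sox9, Nfatc1, Gata6 or Cst6. Of 32851 promoter windows of the same length, 27.6% hold at least 1 of the motifs. The Cd34 window has 46.4% G and C and the Atp6v1c2 window 64.0%, with a median of 52.4% over all windows. The absence of these letters says nothing of binding elsewhere in the genes.

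Among the bulge markers, 3 were higher on average in K14ΔNLef1 and Nfatc1 was lower. Cd34 encodes a surface sialomucin by which bulge stem cells are sorted in mouse skin. Wild type replicates 1, 2 and 3 gave log2 intensities of 7.89, 7.78 and 7.65, and K14ΔNLef1 replicates 1, 2 and 3 gave 8.37, 8.29 and 8.48. Every transgenic array lay above every wild type array, by at least 0.40. The difference was 0.61 (SE 0.17), or 1.52-fold, with a 95% interval of 0.22 to 0.99 and a limma adjusted p of 0.189 (unadjusted p of 0.00676). A smaller p was found for 3.56% of all genes. Without K14ΔNLef1 replicate 1 the difference was 0.61 with an adjusted p of 0.107.

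Sox9 and Lhx2 are transcription factors that bulge stem cells need to persist. The wild type values of Sox9 were 9.04, 8.81 and 8.68, and its transgenic values 9.07, 9.06 and 9.32. Its genotypes did not overlap, by a gap of 0.02, which is smaller than the SD within either genotype, 0.18 in wild type and 0.15 in K14ΔNLef1. The difference was 0.30 (SE 0.18, 95% interval -0.12 to 0.72), with a limma adjusted p of 0.588. Without K14ΔNLef1 replicate 1 the Sox9 difference was 0.34. Lhx2 was 8.14, 7.74 and 8.47 in wild type and 8.33, 8.40 and 8.73 in K14ΔNLef1, with the highest wild type array above 2 of the transgenic ones. The Lhx2 difference was 0.37 (SE 0.23, 95% interval -0.17 to 0.90), with a limma adjusted p of 0.608. It was 0.18 without wild type replicate 2, 0.55 without wild type replicate 3 and 0.44 without K14ΔNLef1 replicate 1.

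Nfatc1, the transcription factor that keeps bulge stem cells quiescent, was the bulge marker with a lower transgenic mean. Wild type mice had 7.78, 7.80 and 7.36, and transgenic mice 6.66, 7.51 and 7.62. K14ΔNLef1 replicate 1 was the lowest array, and the other 2 transgenic arrays lay within the wild type range. The difference was -0.39 (SE 0.28, 95% interval -1.03 to 0.26, limma adjusted p of 0.663), and -0.08 without that array.

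**Figure D1:**
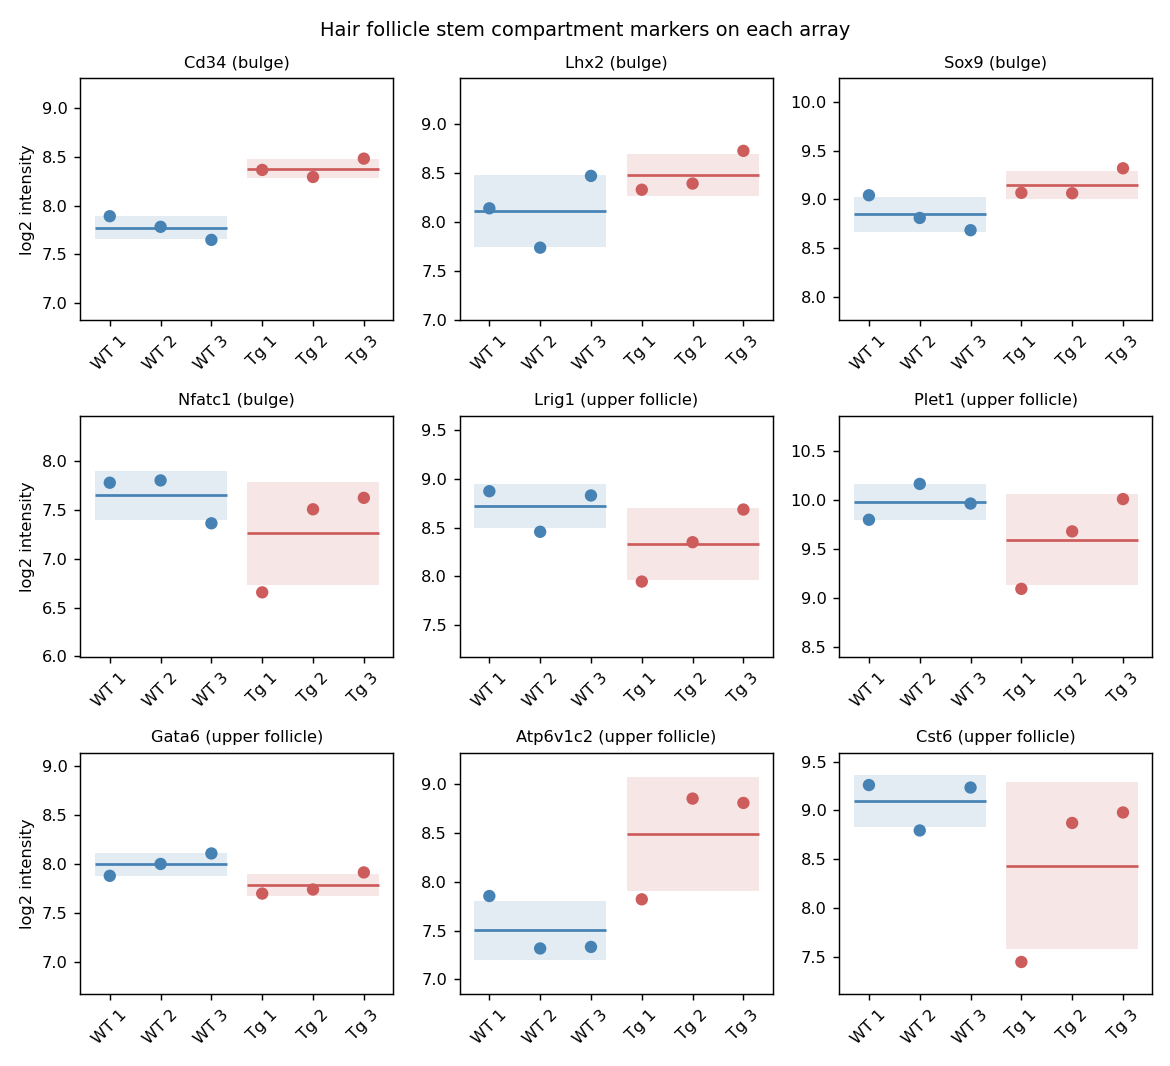
Each panel plots the log2 intensity of 1 marker on each of the 6 arrays (WT, wild type, blue; Tg, K14ΔNLef1, red), with a line at the mean and a band of 1 SD for the 3 arrays of a genotype; all panels span the same number of log2 units. Cd34 lies higher on all 3 transgenic arrays, Atp6v1c2 on replicates 2 and 3, and K14ΔNLef1 replicate 1 is the lowest of the 6 arrays for 5 markers.

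In the upper follicle set, Atp6v1c2 was higher on average in K14ΔNLef1 and the other 4 markers were lower. Lrig1 is a transmembrane inhibitor of ErbB receptor signals that marks stem cells of the junctional zone. Its log2 intensity was 8.87, 8.46 and 8.83 in wild type and 7.95, 8.35 and 8.68 in K14ΔNLef1. Replicates 1 and 2 of K14ΔNLef1 lay below the wild type range and replicate 3 within it. The difference was -0.39 (SE 0.23, 95% interval -0.93 to 0.15, limma adjusted p of 0.588), and -0.20 without K14ΔNLef1 replicate 1. Plet1, the membrane-anchored antigen of the isthmus recognised by the antibody MTS24, was 9.80, 10.17 and 9.97 in wild type and 9.09, 9.68 and 10.01 in K14ΔNLef1. Transgenic replicates 1 and 2 lay below every wild type array and replicate 3 within their range. Its difference of -0.38 (SE 0.26, 95% interval -0.97 to 0.20, limma adjusted p of 0.628) became -0.13 without replicate 1.

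Gata6 is a transcription factor of the junctional zone and the sebaceous duct. It was 7.88, 8.00 and 8.11 in wild type and 7.70, 7.74 and 7.91 in K14ΔNLef1, so that transgenic replicates 1 and 2 lay below all wild type arrays and replicate 3 between them. Its difference was the smallest of the members, at -0.21 (SE 0.17, 95% interval -0.60 to 0.18, limma adjusted p of 0.688), and it was -0.17 without K14ΔNLef1 replicate 1.

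Cst6, an inhibitor of cysteine proteases made in the upper follicle and the cornifying epidermis, had the most negative difference, and 1 array carried it. It was 9.26, 8.79 and 9.23 in wild type and 7.45, 8.87 and 8.98 in K14ΔNLef1. Transgenic replicates 2 and 3 lay inside the wild type range. The difference of -0.66 (SE 0.39, 95% interval -1.57 to 0.24, limma adjusted p of 0.585) became -0.17 without K14ΔNLef1 replicate 1.

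Atp6v1c2, a subunit of the proton-pumping V-ATPase found in the sebaceous duct, had the largest difference of the 9 markers. Wild type mice had 7.85, 7.32 and 7.33, and transgenic mice 7.82, 8.85 and 8.81. Transgenic replicates 2 and 3 lay far above the wild type range, while replicate 1 lay just under the highest wild type array. The difference was 0.99 (SE 0.31), or 1.99-fold, with a 95% interval of 0.28 to 1.70 and a limma adjusted p of 0.238 (unadjusted p of 0.0120). Without K14ΔNLef1 replicate 1 it rose by 1.33 (SE 0.20, limma adjusted p of 0.0282), as the 1 member that passed in that fit, where 2.12% of all genes passed. It passed in 1 of the 6 fits that left out an array, and in the others the adjusted p lay above the threshold, up to 0.646.

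**Figure D2:**
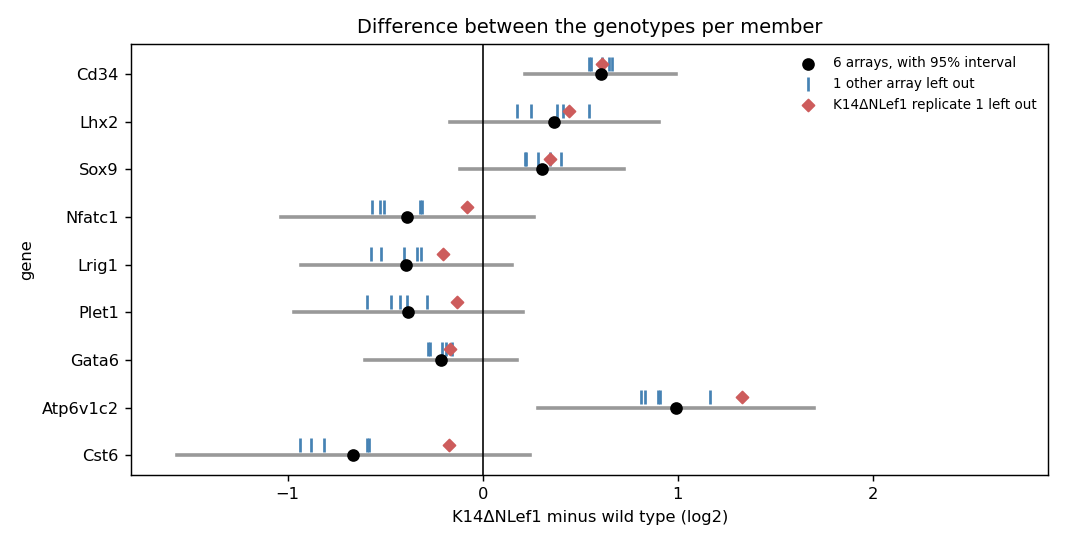
For each marker, a black point gives the difference K14ΔNLef1 minus wild type in log2 with its 95% limma interval (grey), blue ticks the difference with 1 other array left out, and a red diamond the difference without K14ΔNLef1 replicate 1. The intervals of Cd34 and Atp6v1c2 lie above 0, and the differences of Nfatc1, Lrig1, Plet1 and Cst6 shrink to between -0.08 and -0.20 without that array.

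The bulge mean relative to the upper follicle mean was higher on every transgenic array than on any wild type array, though each set alone overlapped between the genotypes. In wild type the bulge mean was 8.21, 8.03 and 8.04, and in K14ΔNLef1 it was 8.11, 8.31 and 8.54, a difference of 0.22. The upper follicle mean was 8.73, 8.55 and 8.69 in wild type and 8.00, 8.70 and 8.88 in K14ΔNLef1, a difference of -0.13. Without K14ΔNLef1 replicate 1 the upper follicle difference turned to 0.13 and the bulge difference was 0.33, and without K14ΔNLef1 replicate 3 they were -0.31 and 0.11. Across all genes the median difference was -0.05.

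The bulge mean minus the upper follicle mean was -0.52, -0.51 and -0.65 in wild type mice, and 0.10, -0.38 and -0.34 in transgenic mice. The gap between the genotypes was 0.13 and the mean difference 0.35, of which the largest part came from K14ΔNLef1 replicate 1, and without that array the difference was 0.20. The members were chosen with results of these data known, so this difference is a description with no test. It was 0.31 to 0.44 when any other array was left out. With 1 member left out of its set at a time, an alternative chosen after seeing the data, it ranged from 0.22 without Cst6 to 0.64 without Atp6v1c2. Atp6v1c2 thus differed in direction from the other 4 upper follicle markers, whose mean difference without it was -0.41, and Nfatc1 from the other bulge markers, whose mean difference without it was 0.43.

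**Figure D3:**
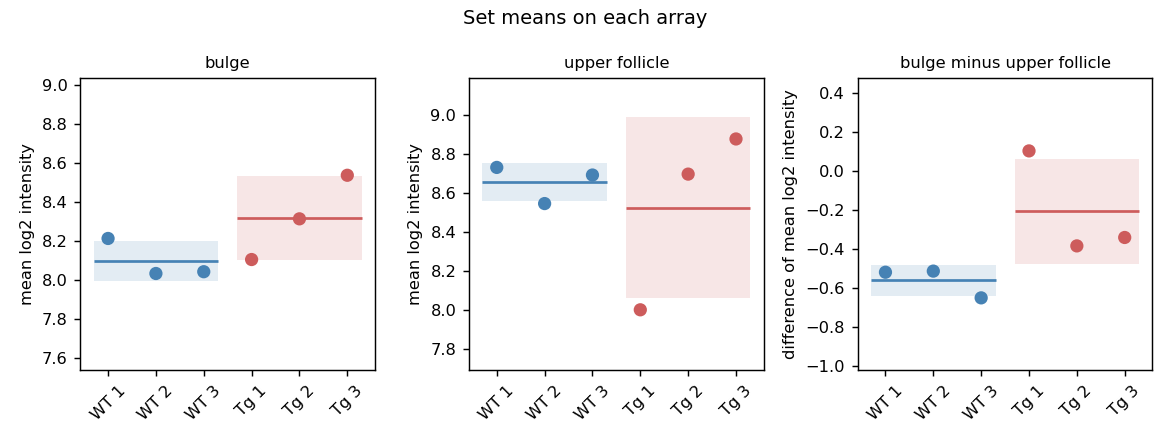
The panels plot, for each of the 6 arrays, the mean log2 intensity of the 4 bulge markers, of the 5 upper follicle markers, and the first minus the second, with lines at the genotype means and bands of 1 SD (n = 3). In the third panel all 3 transgenic arrays, from -0.38 to 0.10, lie above the wild type arrays, from -0.65 to -0.51.

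The probe sets of each gene show how even its difference was. All 14 Atp6v1c2 probe sets had a higher mean in K14ΔNLef1, by 0.37 to 1.46, and 8 of them had no overlap between the genotypes, where 14.6% of all probe sets had none. All 11 Cd34 probe sets were higher, by 0.09 to 1.25, and 5 had no overlap. All 6 Sox9 probe sets and 6 of 7 Lhx2 probe sets were higher. In the other direction, 21 of 24 Lrig1, 10 of 12 Plet1, 9 of 11 Nfatc1 and 4 of 5 Cst6 probe sets were lower, and the 12 Gata6 probe sets went both ways, 5 higher and 7 lower. Without K14ΔNLef1 replicate 1 the Nfatc1 majority turned, with 6 of 11 probe sets higher, and 5 of 24 Lrig1, 4 of 12 Plet1, 6 of 12 Gata6 and 1 of 5 Cst6 probe sets were higher. All 14 Atp6v1c2 and all 11 Cd34 probe sets were higher there too, as were 5 of 6 of Sox9 and 6 of 7 of Lhx2. Probe sets of 1 gene share their RNA sample, so they are no replicates.

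No member probe set passed the limma test over all probe sets, where 0.190% were called. At an unadjusted limma p under 0.05 there were 13 of 102, against 8.13% of all probe sets: 7 of Atp6v1c2 and 3 of Cd34, all higher, and 1 each of Nfatc1, Lrig1 and Plet1, all lower. The strongest of the lower ones was Nfatc1 probe set 5153724, at 5.32, 5.16 and 4.61 in wild type and 3.57, 3.78 and 2.94 in K14ΔNLef1, with an adjusted p of 0.188. It is a dim probe set, and the other 10 of Nfatc1 overlapped between the genotypes. Without K14ΔNLef1 replicate 1, 20 of the 102 had an unadjusted p under 0.05, against 9.69% of all probe sets, 13 of them of Atp6v1c2, and again none passed after adjustment. A test of unequal change along the gene (diffSplice F test) called none of the 9 markers, against 0.754% of genes, and Gata6 came nearest with an unadjusted p of 0.0517 and an adjusted p of 0.863.

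The probe sets of 6 of the 9 markers scattered most on K14ΔNLef1 replicate 1, while those of Lhx2, Sox9 and Nfatc1 scattered most on K14ΔNLef1 replicate 3. The SD of the probe sets' deviations from their wild type means was 1.77 for Cst6 and 0.94 for Plet1 on K14ΔNLef1 replicate 1. On the other transgenic arrays it was 0.23 to 0.33 for these 2 genes. Across all genes with at least 5 probe sets, the median of this SD was 0.74 on K14ΔNLef1 replicate 1. It was 0.46 and 0.47 on the other transgenic arrays and 0.32 to 0.34 in wild type. Cst6 shows it best: probe set 4596500 was 10.42, 10.06 and 10.34 in wild type and 7.17, 10.03 and 9.99 in K14ΔNLef1, while probe set 4317202 was 6.04, 5.77 and 6.14 in wild type and 6.95, 5.51 and 5.84 in K14ΔNLef1. The part of this scatter in the lower means of Nfatc1, Lrig1, Plet1 and Cst6 was not tested.

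**Figure D4:**
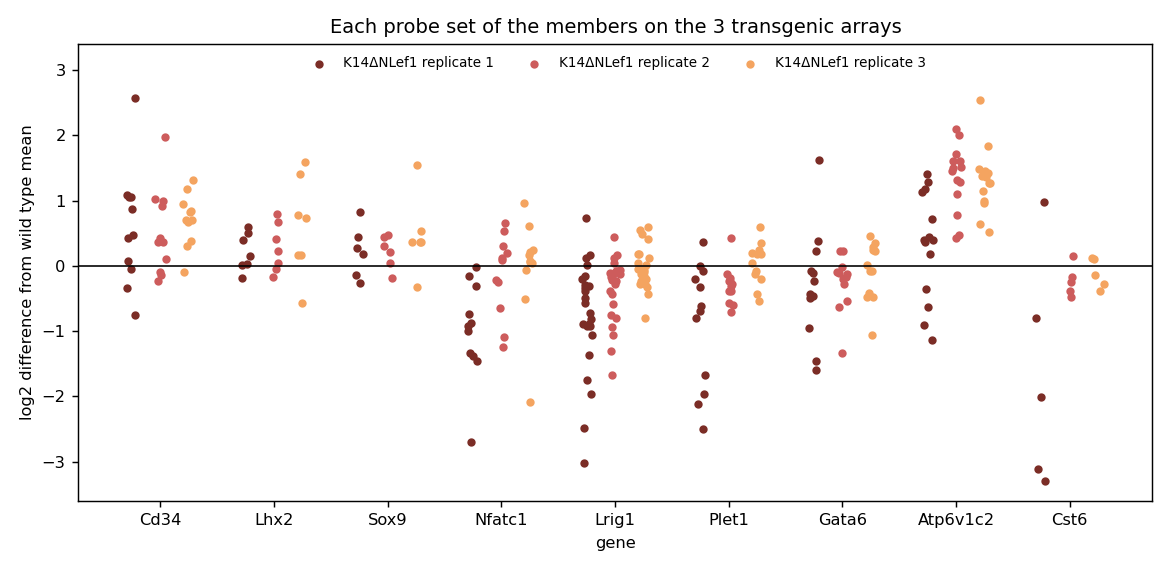
Each point is 1 probe set of a marker on 1 transgenic array, plotted as its log2 difference from the mean of the 3 wild type arrays, with the 3 K14ΔNLef1 replicates side by side. Atp6v1c2 points of replicates 2 and 3 all lie above 0, and the 6 lowest points, from -3.29 to -2.49 and of Cst6, Lrig1, Nfatc1 and Plet1, belong to replicate 1.

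Markers of other cell types were high on some of the same arrays. The T cell list lay at mean log2 intensities of 8.43, 7.57 and 7.82 in wild type and 7.78, 9.53 and 8.98 in K14ΔNLef1, high on the same 2 transgenic arrays as Atp6v1c2 and, in wild type, highest on the same array. Of its 8 measured genes 7 were higher in K14ΔNLef1 and none passed. Without K14ΔNLef1 replicate 1 all 8 were higher and Cd2 and Gzmc passed, where 2.12% of all genes passed. The Langerhans cell list lay at 7.75, 7.20 and 7.18 against 7.21, 8.79 and 8.16, with 7 of 8 genes higher and none that passed. The gene whose pattern over the 6 arrays was most like that of Atp6v1c2 was Cd2, a T cell adhesion receptor, with a root mean square difference of 0.12 log2 units after each gene was centred. It was followed by Lsp1, an actin-binding protein of leukocytes, and Cacnb2, a calcium channel subunit, with 0.13 and 0.15. On K14ΔNLef1 replicate 1, Atp6v1c2 was 0.32 above its wild type mean and the T cell list at -0.16 from its own. The median of this deviation over all genes on that array was also -0.16. The part of T cells or Langerhans cells in the Atp6v1c2 values was not tested.

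Cd34 is also made by endothelial cells, fibroblasts and mast cells. The endothelial list had a mean log2 intensity between 6.13 and 6.15 on the wild type arrays and of 6.42, 6.06 and 6.30 on the transgenic arrays. Cd34 lay 0.59, 0.52 and 0.71 above its wild type mean on K14ΔNLef1 replicates 1, 2 and 3. The endothelial list lay at 0.27, -0.08 and 0.16 from its own. Among the transgenic arrays, replicate 2 was the lowest for Cd34 and for the endothelial, fibroblast and mast cell lists. Fibroblast genes lay at 6.41 to 6.64 in wild type and 6.61 to 6.84 in K14ΔNLef1, and mast cell genes at 6.16 to 6.21 and 6.24 to 6.37. The fibroblast means include 1 gene with a difference of -1.29, and the median difference of that list was 0.14. Of the endothelial genes 8 of 11 were higher in K14ΔNLef1, of the fibroblast genes 10 of 11 and of the mast cell genes 3 of 5, and none of them passed. The part of these cells in the Cd34 values was not tested. The nearest in these lists were Cdh5 with 0.31 (limma adjusted p of 0.618) and Esam with 0.28 (0.631), Sparc with 0.92 (0.145) and Fbln1 with 1.02 (0.147), and Kit with 0.42 (0.344) and Cma1 with 0.15 (0.827). The genes most like Cd34 over the 6 arrays were Ccdc3, Slc2a4, the insulin-regulated glucose transporter, and Ccdc159, with root mean square differences of 0.06, 0.07 and 0.09.

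**Figure D5:**
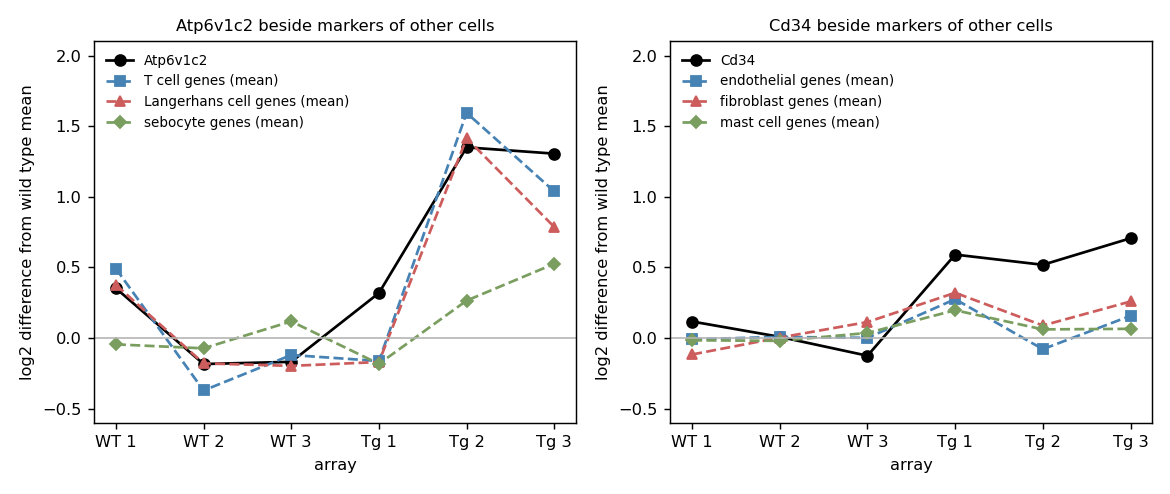
Atp6v1c2 (left) and Cd34 (right) are plotted on the 6 arrays as log2 differences from the wild type mean, in black, beside the mean of marker lists of other cells, in colour with dashed lines. Atp6v1c2, at 1.35 and 1.31, is high on K14ΔNLef1 replicates 2 and 3, as are the T cell and Langerhans cell means. On replicate 1 Atp6v1c2 is at 0.32, and both means lie at -0.16 and -0.17, where the median over all genes is -0.16. Cd34, at 0.52 to 0.71 on the transgenic arrays, lies above the endothelial, fibroblast and mast cell means.

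Among 19 other bulge and hair germ markers and 5 other upper follicle markers, 1 passed, Sostdc1, where 1.16% of all genes passed. These lists too were chosen with earlier results of these data known. Of 19 other bulge and hair germ markers, 10 were higher and 9 lower, with a median of 0.08, and none passed. The nearest were the secreted Wnt inhibitor Wif1, with 1.16 (limma adjusted p of 0.125), and Cd200, an immune inhibitory ligand of bulge cells, with -0.89 (adjusted p of 0.366). Of 5 other upper follicle markers, 1 was higher and 4 lower, with a median of -0.17. Sostdc1, a secreted antagonist of BMPs and Wnts, fell by 1.83 (limma adjusted p of 0.0170), and also without K14ΔNLef1 replicate 1, and it was the 1 that passed.

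In the lists of neighbouring lineages (sebocyte, basal, suprabasal, and hair matrix and shaft), 4 of 42 measured genes passed, or 9.52%, against 1.16% of all genes. These lists were chosen with earlier results of these data known, so the share is a description with no test. Of 11 sebocyte genes, 5 were higher and 6 lower, with a median of -0.01, and Acsl1, which activates fatty acids, fell by 1.30 (limma adjusted p of 0.0325). Without K14ΔNLef1 replicate 1, the sebocyte genes Mgst1 and Soat1 also passed, both higher, and 8 of the 11 were higher. Cdh3, the P-cadherin gene of basal cells and hair germ, and Krt27, a keratin of the inner root sheath, passed as well in that fit, both higher. Of all genes, 2.12% passed in the fit without K14ΔNLef1 replicate 1. The sebocyte mean lay at 7.44, 7.41 and 7.60 in wild type and 7.30, 7.75 and 8.01 in K14ΔNLef1, again lowest on replicate 1. None of 11 basal genes passed, with Cdh3 at 0.82 (adjusted p of 0.170) and Lamb3, a laminin chain, at -0.42 (0.431). Of 9 suprabasal genes Krt2 rose by 1.79 and Krt77 fell by 1.97 (limma adjusted p of 0.0240 and 0.0102). The suprabasal median was -0.40, and 0.06 without K14ΔNLef1 replicate 1. Of 11 genes in the hair matrix and shaft list Gata3 fell by 1.35 (0.0181), and the other 10 did not pass. The median of that list was -0.06. In the immune and pigment lists the nearest genes were Gzmc with 1.72 (0.231), Fcer1g with 0.74 (0.261), Itgax with 0.39 (0.472), Tyr with 0.60 (0.229) and Tyrp1 with 0.53 (0.302), of which none passed.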

How the data were processed

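Epidermal RNA of 6 mice was amplified and hybridised to mouse exon arrays, per the labels' protocols. The authors deposited 1 linear intensity per probe set and array. The submitters' processing notes name Affymetrix Power Tools, RMA and mm9, while versions and filters are not given in the sources used here. Log2 was taken before every step. Of 114330 probe sets, the 109751 with 1 symbol in the platform annotation were used, 834 had several and 3745 had none, and 1226 older symbols were updated through RefSeq synonyms. A gene's value is the mean log2 of its probe sets. Genes, probe sets and unequal change (diffSplice, at least 3 probe sets) were compared between genotypes by limma (version 3.58.1, R 4.3.3), two-sided, with no filter, over the whole table, with code tested on simulated data. P-values set the difference between the genotypes against the spread between samples of a genotype, which limma moderates over all genes or probe sets. The number of arrays limits the precision. The members and lists were chosen with earlier results of these data known. Named genes are all members, Lef1, in each other list those that passed or else the 2 with the smallest p, and the 3 genes most alike the nearest member of each set. Alternatives covered the probe set summary, filters, scaling, moderation, blocks and left-out arrays. Figures were drawn with matplotlib 3.10.9.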

Additional observations from a re-analysis of the deposited data

How the results depend on the processing

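Every one of the 9 members kept its direction under all 17 alternatives run. Cd34 ranged from 0.44 with the median of probe sets to 0.74 with quantile normalization, with adjusted p of 0.0218 to 0.607, and Atp6v1c2 from 0.81 to 1.33 with adjusted p of 0.00275 to 0.646. With array weights, 2 members passed, Cd34 (limma adjusted p of 0.0218) and Atp6v1c2 (0.00275). In that fit, however, 598 of all 11281 genes rose and 699 fell. With K14ΔNLef1 replicate 1 left out and the others quantile normalized, 1 member passed, Atp6v1c2 (limma adjusted p of 0.0288). There 111 genes rose and 127 fell. With 1 array left out, 0 to 1 members passed, 8 (without wild type replicate 2) to 115 genes (without K14ΔNLef1 replicate 1) rose and 18 (without wild type replicate 3) to 124 (without K14ΔNLef1 replicate 1) fell, and the bulge minus upper follicle difference was 0.20 to 0.44. In all, 37 genes rose and 94 fell. Rises numbered 101 with arrays at the same median and 89 with quantile normalization. Falls numbered 49 with the replicate block, 61 with a block by adjacent animal numbers and 50 with the array number as a covariate. The replicate block changed no member's call (26 rises), and same-numbered samples did not deviate together (correlations of -0.16, -0.17 and 0.04). For samples with adjacent animal numbers the correlations were 0.20, -0.07 and -0.01. The labels name no pairing, and with 3 arrays per genotype these correlations cannot exclude one. With 1 member left out of its set, chosen after seeing the data, the bulge difference was 0.10 without Cd34 and 0.43 without Nfatc1, and the bulge minus upper follicle difference 0.56 without Nfatc1 and 0.64 without Atp6v1c2. The upper follicle difference turned to 0.01 with quantile normalization, and it lay at 0.00 without Cst6. No member probe set passed in the 15 alternatives run for probe sets, and no member changed unequally in the 13 run for that test.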
